A study of Mus musculus with 9 samples.

Results

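Cytochrome P450 genes were followed in mouse kidney. They were taken as the protein-coding rows of the count table whose Ensembl identifier maps to a symbol of Cyp, a number, a letter and a number, leaving out Cyp24a1 and Cyp27b1. Symbols with a further letter at the end, such as Cyp4a12a, do not meet this rule and were not followed. The table of 55359 genes, of which 21877 are protein-coding, held 91 such genes. Of these, 36 had 10 or more counts in at least 3 of the 9 libraries and are described here. The other 55 fell below that level, with 20 at 0 in all libraries, 22 with 1 to 10 counts in all and 13 with up to 57.

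Messenger RNA of whole kidney was sequenced in 3 groups of 3 libraries each. Groups follow the sample titles, because the treatment field names the compound for all 9. HFD-STZ DHZ mice were put on a high-fat diet at 6 weeks of age, with 49.0% of calories from fat. On days 60 and 63 of that diet they were injected with 30 mg/kg of streptozotocin (STZ), which kills beta cells. After raised fasting glucose was seen on day 65 they received dehydrozingerone (DHZ), a phenolic compound of ginger, by mouth at 50 mg/kg for 2 weeks. HFD-STZ vehicle mice had the same diet and STZ with vehicle, and NCD vehicle mice stayed on a diet with 11.32% of calories from fat. Diet and STZ are thus shared by both HFD-STZ groups, and their effects cannot be told apart in this design. No 2 libraries share a batch date in the labels, and dates run with the groups, so date and group cannot be told apart. Nothing there says that each library came from a separate mouse, so p-values measure the spread between these libraries only.

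P450 enzymes are heme proteins that add oxygen to fatty acids, sterols, retinoids, drugs and other foreign compounds, with electrons passed on from NADPH by a reductase. In the kidney they are most abundant in the proximal tubule, where CYP4A enzymes hydroxylate arachidonic acid and CYP2C and CYP2J enzymes make epoxides of it, lipids that act on vessel tone and sodium transport. Many P450 genes of mouse kidney are known to differ between males and females.

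Libraries of both kinds by sex-linked transcripts stood in every group, although the labels and protocols read here state neither sex nor strain. Whether any library carries the label of another group could not be tested with them. The Y chromosome's Kdm5d, Eif2s3y, Ddx3y and Uty together stood at 36.5 to 106 CPM (counts scaled to a common total, here the unscaled sum of all genes) in HFD-STZ DHZ 3, HFD-STZ vehicle 2, HFD-STZ vehicle 3 and NCD vehicle 1, which are called Y-positive below. In the other 5 libraries, called Y-negative, they reached at most 0.209. Xist was at 0.109 to 0.848 CPM in Y-positive libraries and at 500 to 779 CPM in Y-negative ones. Libraries held 15.1 M to 47.5 M counts (M for mega), of which mitochondrial genes took 39.2% to 60.4%. Nuclear protein-coding genes were left with 2.13 M (HFD-STZ vehicle 2) to 15.2 M counts, so HFD-STZ vehicle 2 carries the largest counting error. Levels below are CPM of the TMM-scaled library size, and 3 counts, the limit that a count of 0 allows, equal 0.0463 to 0.405 CPM. TMM factors, which multiply the library size, were 0.327 in HFD-STZ vehicle 2, 0.715 in HFD-STZ vehicle 3 and 0.721 in NCD vehicle 1. They were 1.25 in HFD-STZ DHZ 3 and 1.22 to 1.63 in Y-negative libraries. A factor below 1 raises the levels of a library over those scaled by library size alone, and one above 1 lowers them. All 20 proximal tubule markers checked were expressed, with summed levels of 4889 to 5024 CPM in HFD-STZ DHZ, 3233 to 7859 in HFD-STZ vehicle and 3881 to 7160 in NCD vehicle. Of 10 liver markers 7 were tested, and the list summed to 53.3 to 57.6 CPM in HFD-STZ DHZ, 28.0 to 115 in HFD-STZ vehicle and 17.3 to 35.1 in NCD vehicle, most of it Ttr, Trf and Serpina1c. Alb averaged 3.09, 1.93 and 2.63 CPM in the same order of groups. Ahsg was at or near 0 and Tat at 0 in every library, and 0 of the 7 were called between groups (edgeR, 1 at an unadjusted p below 0.05 for HFD-STZ vehicle against NCD vehicle and 2 in each comparison of HFD-STZ DHZ). Fewer cells of a type and less RNA per cell cannot be told apart in such whole-tissue samples.

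Levels per kilobase of exon spanned a wide range, and a few genes made up most of the summed level of the 36. Cyp2a4, a steroid 15-alpha-hydroxylase, was the highest at 165 CPM per kilobase over the 9 libraries. It was followed by the arachidonate epoxygenase Cyp2j5 at 74.9, the fatty acid hydroxylase Cyp4a10 at 68.3, Cyp4b1 at 59.9 and Cyp4a31 at 57.2. These 5 genes held 75.4% of the summed level per kilobase of the 36. Cyp2e1 (24.9), the coumarin hydroxylase Cyp2a5 (23.3), Cyp2j11 (17.4), Cyp4a14 (13.2) and Cyp2d26 (8.24) completed the 10 highest, and the same 10 came out when levels were scaled by library size alone. At the other end 12 genes lay below 1 CPM per kilobase, down to 0.15 for Cyp4f14. Within the family 12 of the 36 genes lie on chromosome 4, namely the 7 CYP2J genes, the 4 CYP4A genes and Cyp4b1.

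Of the top 10, the fatty acid hydroxylases Cyp4a10 and Cyp4a31 and Cyp2j11 were called in no comparison below, by group or by sex-linked transcripts. Cyp4a10 stood at 188, 214 and 87.5 CPM in HFD-STZ DHZ, 128, 119 and 99.8 in HFD-STZ vehicle, and 92.8, 194 and 172 in NCD vehicle. Cyp4a31 stood at 162, 139.7 and 105 CPM in HFD-STZ DHZ, 109.9, 259 and 134 in HFD-STZ vehicle, and 93.0, 150.3 and 139 in NCD vehicle. Cyp2j11 stood at 50.0, 54.5 and 19.1 CPM in HFD-STZ DHZ, 25.8, 31.3 and 29.7 in HFD-STZ vehicle, and 30.7, 29.4 and 29.1 in NCD vehicle. The groups overlapped for each of these genes in all 3 comparisons, and in HFD-STZ DHZ the Y-positive library was the lowest for all 3 genes. For Cyp4a10 every Y-positive library (at most 119 CPM) lay below every Y-negative one (at least 128), and the estimate of −0.81 on the log2 scale (SE 0.22, adjusted p = 0.071) was called in 6 of 17 alternatives.

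**Figure D1:**
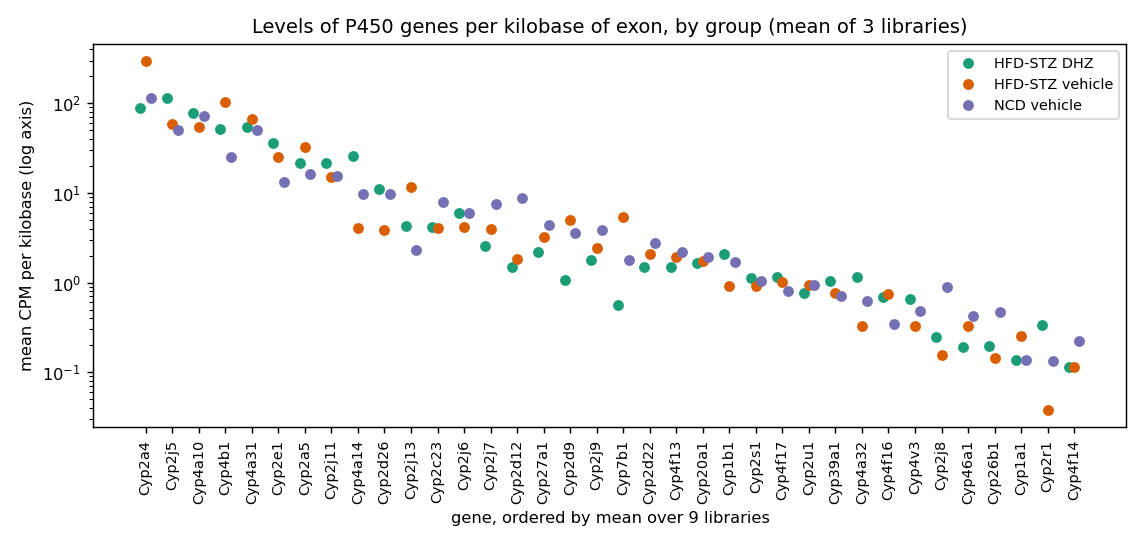
Mean level of each of the 36 P450 genes in CPM per kilobase of exon (log axis), with a point for each group of 3 libraries and genes ordered by the mean over 9 libraries. Levels fall from 165 for Cyp2a4 to 0.15 for Cyp4f14.

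Genes that adrenal or gonadal tissue would bring were close to absent. Over all 9 libraries Cyp11a1 had 9 counts in total, Cyp11b1 had 3, Cyp11b2 and Cyp21a1 had 0, Cyp17a1 had 38 and Cyp19a1 had 1. The P450 genes just inside the level of 10 counts in 3 libraries were Cyp2r1, Cyp4f14 and Cyp1a1, the last with 8, 22 and 20 counts in HFD-STZ DHZ, 19, 5 and 11 in HFD-STZ vehicle, and 6, 6 and 23 in NCD vehicle. Those just outside were Cyp3a13 with 57 counts, Cyp26a1 with 57 and Cyp2c69 with 52. No gene of the 55 below had more than 19 counts in a library.

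Several P450 genes differed between Y-positive and Y-negative libraries in every group. In a fit with group and Y status as terms, 8 of the 36 genes were called at an adjusted p below 0.05 (22.2%), against 3.43% of the 17179 genes tested (quasi-likelihood test of edgeR, Benjamini-Hochberg adjusted, as for every adjusted p here). In Y-positive libraries Cyp2j13, Cyp4b1, Cyp2e1, Cyp2a5 and Cyp2j9 were higher, against 1.74% of all genes, and Cyp4a14, Cyp2d26 and Cyp4a32 were lower, against 1.69%. The ranges of Y-positive and Y-negative libraries did not overlap for 10 genes, beside 5.59% of all genes. These were 6 that were higher (2.41% of all genes) and 4 that were lower (3.18%). A further 5 genes had an unadjusted p below 0.05, which made 13 (36.1%), beside 16.3% of all genes. The labels do not set out this comparison.

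The promoters of Cyp2j13, Cyp4b1, Cyp2e1 and Cyp2d26, which were called by Y status, are shown from RefSeq (mouse build GRCm38.p6, older than the files' GRCm39), as the 250 bases before the annotated start, 5′ to 3′. Capitals mark matches on either strand to GCGTG, the core that the dioxin receptor AhR binds, to AGAACA, the hexamer bound by steroid receptors, to TTCNNNGAA, the spacing STAT factors bind, or to AGGTCA, the hexamer of many nuclear receptors; the patterns do not overlap here.
Cyp2j13 promoter (chr4:96077541-96077790, minus strand): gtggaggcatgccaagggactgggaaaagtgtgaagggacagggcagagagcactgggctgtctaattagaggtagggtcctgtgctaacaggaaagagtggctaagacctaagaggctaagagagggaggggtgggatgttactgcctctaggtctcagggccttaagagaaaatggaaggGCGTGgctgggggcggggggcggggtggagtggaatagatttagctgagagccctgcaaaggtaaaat
Cyp4b1 promoter (chr4:115647722-115647971, minus strand): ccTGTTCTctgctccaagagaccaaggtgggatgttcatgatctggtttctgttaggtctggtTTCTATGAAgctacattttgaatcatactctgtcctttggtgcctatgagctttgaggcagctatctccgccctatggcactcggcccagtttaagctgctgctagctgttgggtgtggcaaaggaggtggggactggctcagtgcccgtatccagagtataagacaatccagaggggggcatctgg
Cyp2e1 promoter (chr7:140763569-140763818, plus strand): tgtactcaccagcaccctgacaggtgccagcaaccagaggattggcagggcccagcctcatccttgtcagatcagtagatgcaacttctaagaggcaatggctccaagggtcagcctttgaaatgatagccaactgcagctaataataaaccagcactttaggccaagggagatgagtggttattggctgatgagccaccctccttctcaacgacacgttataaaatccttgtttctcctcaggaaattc
Cyp2d26 promoter (chr15:82794246-82794495, minus strand): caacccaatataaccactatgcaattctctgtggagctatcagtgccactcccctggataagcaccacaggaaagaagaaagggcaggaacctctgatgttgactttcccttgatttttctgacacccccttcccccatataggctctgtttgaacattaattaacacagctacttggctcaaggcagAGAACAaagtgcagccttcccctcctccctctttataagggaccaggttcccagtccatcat
Of 32851 mouse promoter windows of this length, 28.2% hold GCGTG, 16.1% AGAACA, 14% AGGTCA and 7.02% TTCNNNGAA. The Cyp2j13 window, the first of 2 listed, holds GCGTG from 68 bases before the start. The Cyp4b1 window holds AGAACA in reverse from 248 bases and TTCNNNGAA from 187 bases before it, and the Cyp2d26 window holds AGAACA from 62 bases before it. The Cyp2e1 window holds none of the 4 patterns. Windows were matched for 25 of the 36 genes by symbol, and Cyp4a14 is not among them.

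Cyp2j13, of the arachidonate epoxygenase subfamily, was the clearest case. It stood at 59.9 CPM in HFD-STZ DHZ 3, 71.3 and 90.4 in HFD-STZ vehicle 2 and 3 and 32.7 in NCD vehicle 1, all Y-positive. Among the Y-negative libraries it stood at 0.323 and 0.154 CPM in HFD-STZ DHZ 1 and 2, 0.271 in HFD-STZ vehicle 1, and 0.0415 and 0.0767 in NCD vehicle 2 and 3. Every Y-positive library thus lay far above every Y-negative one, in whichever group. The fitted log2 fold change was 8.30 (SE 0.27, adjusted p = 2.3e-09), and since the Y-negative libraries held only 11, 10, 5, 1 and 3 reads of it, that value depends on the prior count of the fit. Pooled over libraries, 5452 reads against 30 gave a ratio of 384 per unit of library size (exact 95% interval 269 to 570, counting error only). Cyp2j13 overlaps the pseudogene Hspe1-ps6 on its strand, whose reads may be mixed with its own.

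Cyp4b1, a fatty acid and xenobiotic hydroxylase long known as androgen-dependent in mouse kidney, and Cyp2e1, the ethanol-oxidising P450, followed the same split. For Cyp4b1 the Y-positive libraries had 282 CPM in HFD-STZ DHZ 3, 249 and 429 in HFD-STZ vehicle 2 and 3 and 141 in NCD vehicle 1. The Y-negative ones had 36.5 and 31.6 CPM in HFD-STZ DHZ 1 and 2, 19.0 in HFD-STZ vehicle 1, and 13.8 and 14.0 in NCD vehicle 2 and 3 (log2 fold change 3.50, SE 0.26, adjusted p = 4.2e-06). The lowest Y-positive library was therefore well above the highest Y-negative one. Cyp2e1 had 195 CPM in HFD-STZ DHZ 3, 49.0 and 112 in HFD-STZ vehicle 2 and 3 and 66.3 in NCD vehicle 1 among Y-positive libraries. It had 22.6 and 15.6 CPM in HFD-STZ DHZ 1 and 2, 4.17 in HFD-STZ vehicle 1, and 8.56 and 10.3 in NCD vehicle 2 and 3 among Y-negative ones (3.44, SE 0.31, adjusted p = 3.0e-05). Here too the 2 sets did not overlap, and inside each set HFD-STZ DHZ was the highest group.

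Cyp2a5 and Cyp2j9 were higher in Y-positive libraries by less. Cyp2a5 stood at 92.5 CPM in HFD-STZ DHZ 3, 129 and 56.3 in HFD-STZ vehicle 2 and 3 and 34.3 in NCD vehicle 1, against 22.9, 18.1, 14.6, 33.3 and 34.1 CPM in the Y-negative libraries in the order of groups and replicates. The log2 fold change was 1.71 (SE 0.42, adjusted p = 0.044), but in NCD vehicle the Y-positive library (34.3 CPM) was level with the Y-negative ones (33.3 and 34.1). The call was kept without NCD vehicle 1 (0.0029) or NCD vehicle 2 (0.047) and lost with any other library left out, at 0.051 to 0.33. Cyp2j9, another arachidonate epoxygenase, stood at 8.64, 10.2, 11.3 and 20.8 CPM in the Y-positive libraries and at 5.44, 3.83, 2.98, 8.47 and 9.74 CPM in the Y-negative ones (1.28, SE 0.21, adjusted p = 0.0033). Its sets overlapped across groups, but within each group the Y-positive libraries were the higher. Of 17 alternatives, scaling by library size alone ended its call (0.30).

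Cyp4a14, Cyp2d26 and Cyp4a32 were lower in Y-positive libraries. Cyp4a14, a lauric acid hydroxylase and textbook target of the fatty acid receptor PPAR alpha, stood at 20.1 CPM in HFD-STZ DHZ 3, 1.48 and 5.06 in HFD-STZ vehicle 2 and 3 and 5.45 in NCD vehicle 1. In Y-negative libraries it stood at 94.8 and 85.0 CPM in HFD-STZ DHZ 1 and 2, 24.9 in HFD-STZ vehicle 1, and 36.3 and 35.0 in NCD vehicle 2 and 3 (log2 fold change −2.53, SE 0.27, adjusted p = 1.2e-04). Y-negative libraries were higher in each group, and HFD-STZ DHZ was the highest group in each set. For Cyp2d26 the Y-positive libraries had 10.3, 3.10, 5.78 and 6.58 CPM and the Y-negative ones 24.5, 25.1, 12.0, 25.4 and 19.9 CPM, again in the order of groups and replicates (−1.46, SE 0.21, adjusted p = 0.0012). Cyp4a32 was scarce, with 0.582, 0.135, 0.441 and 0.535 CPM in Y-positive libraries and 2.35, 2.44, 0.922, 0.872 and 1.46 CPM in Y-negative ones (−1.57, SE 0.37, adjusted p = 0.035). The sets of both genes did not overlap, but the call of Cyp4a32 was kept only without NCD vehicle 2, HFD-STZ vehicle 2 or HFD-STZ vehicle 3 and was lost with any other left out (0.085 to 0.24).

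Cyp7b1, the oxysterol and androgen hydroxylase, is named after its values were seen, since it broke the pattern in a single group. It stood at 1.22 CPM in the Y-positive HFD-STZ DHZ 3, at 14.4 and 20.8 in HFD-STZ vehicle 2 and 3 and at 10.4 in NCD vehicle 1. The Y-negative libraries had 1.21 and 1.19 CPM in HFD-STZ DHZ 1 and 2, 0.271 in HFD-STZ vehicle 1, and 0.498 and 0.792 in NCD vehicle 2 and 3. Vehicle libraries were thus split by Y status and the HFD-STZ DHZ libraries were level at about the same low value. The Y term was not called (3.17, SE 0.78, adjusted p = 0.056). A test of whether the group differences depended on Y status called 0 of the 36 genes and 0 of 17179 in each comparison (edgeR). Of the 36, 7 or 8 had an unadjusted p below 0.05, and the share of all genes at that level was not taken. Each combination of group and Y status held only 1 or 2 libraries, so this test cannot decide whether such a dependence exists.

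**Figure D2:**
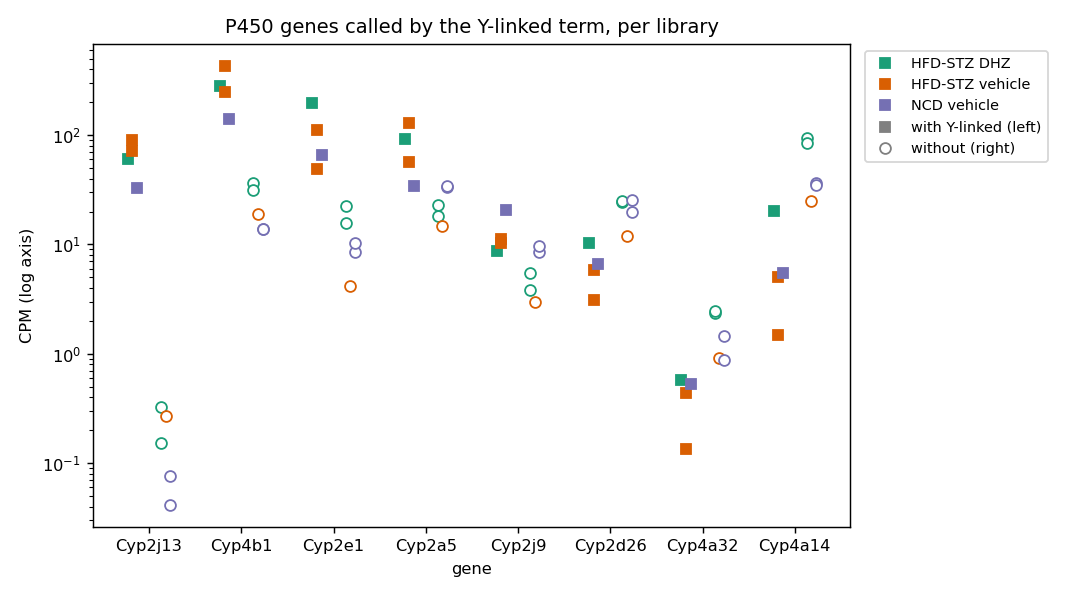
Level in CPM (log axis) of the 8 P450 genes called by Y status, with a filled square for each of the 4 Y-positive libraries and an open circle for each of the 5 Y-negative ones, coloured by group. Cyp2j13 lies at 32.7 to 90.4 CPM in the squares and at no more than 0.323 in the circles, and Cyp4a14 has the opposite order.

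**Figure D3:**
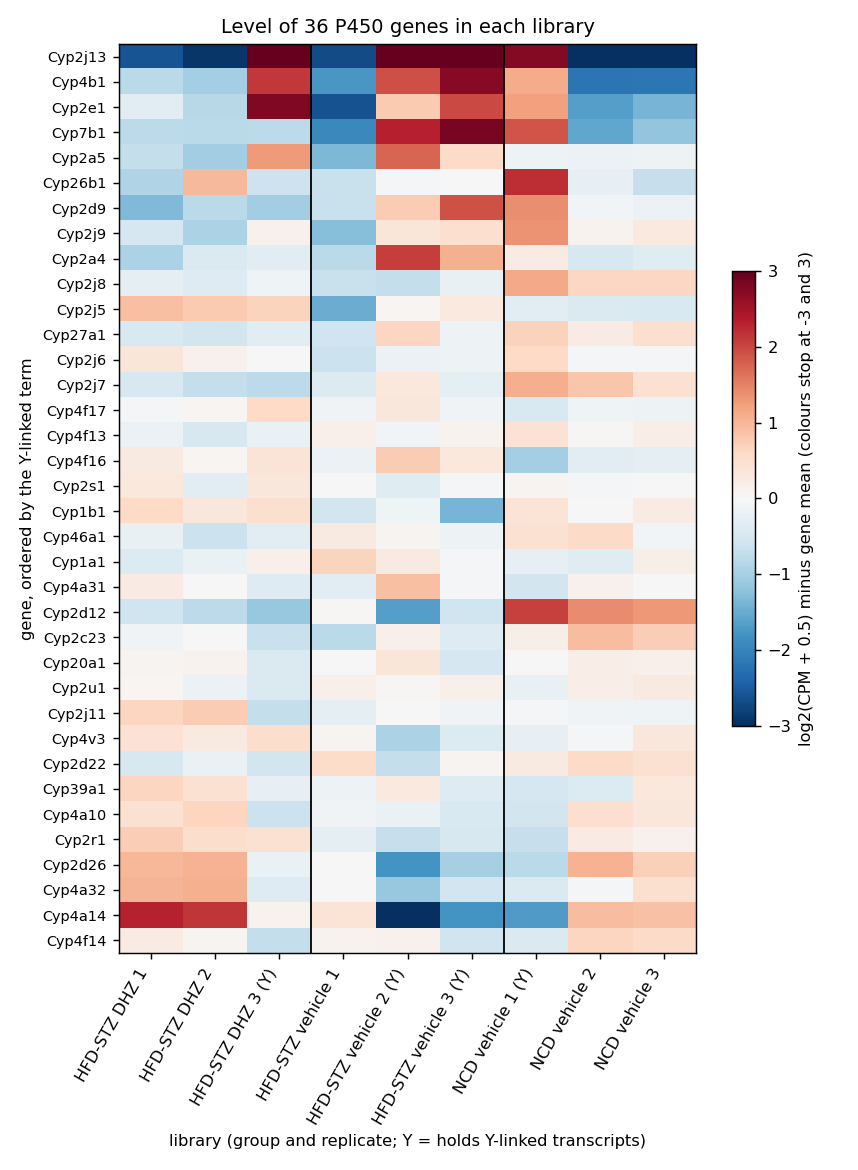
Level of each of the 36 P450 genes in each library, as log2(CPM + 0.5) minus the gene's mean, with colours that stop at −3 and 3, genes ordered from the highest to the lowest Y term, and Y-positive libraries marked Y. Cyp2j13, Cyp4b1 and Cyp2e1 at the top are high in the Y-positive libraries of each group, and Cyp4a14 near the bottom is lower in them than in the Y-negative libraries of the same group.

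The question of treatment rests on HFD-STZ DHZ against HFD-STZ vehicle, both with the diet and STZ. Cyp1b1 and Cyp2r1 rose, and Cyp2a4 and Cyp2d9 fell. These 4 of 36 genes (11.1%) stand beside 22.1% of all genes tested, of which 1726 genes were higher and 2070 (12.0%) lower, so the share of called members was below the background. At an unadjusted p below 0.05 there were 9 (25%), beside 37.1% of all genes. The median log2 fold change of the 36 genes was 0.03, against 0.04 for all genes.

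Cyp1b1, a P450 of vessels and mesenchyme that oxidises estrogens and polycyclic compounds and is induced through AhR, rose in HFD-STZ DHZ. It stood at 13.1, 10.9 and 12.1 CPM in HFD-STZ DHZ, against 5.58, 7.69 and 2.89 in HFD-STZ vehicle, while NCD vehicle had 11.4, 8.60 and 10.1. No HFD-STZ vehicle library reached the lowest library of either other group. The log2 fold change was 1.20 (SE 0.30, adjusted p = 0.016), and it was 1.23 (adjusted p = 0.014) with the Y term. Without HFD-STZ DHZ 1 the adjusted p was 0.062, and with any other library left out it was at most 0.047. It was called in 19 of 21 alternatives. Its promoter, shown because the gene is induced through AhR, holds GCGTG in reverse from 76 bases before the start (in capitals), in the build given above. GCGTG is found in 28.2% of all mouse promoter windows of this length, and whether AhR binds at this match was not tested.
Cyp1b1 promoter (chr17:79715062-79715311, minus strand): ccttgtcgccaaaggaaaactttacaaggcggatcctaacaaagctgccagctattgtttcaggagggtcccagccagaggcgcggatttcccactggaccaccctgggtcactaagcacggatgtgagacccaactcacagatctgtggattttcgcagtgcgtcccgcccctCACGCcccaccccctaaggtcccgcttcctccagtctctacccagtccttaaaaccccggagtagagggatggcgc
Cyp1a1, the classic AhR target, was near the detection limit at 0.235, 0.339 and 0.582 CPM in HFD-STZ DHZ and 1.03, 0.674 and 0.441 in HFD-STZ vehicle (log2 fold change −0.89, SE 0.54, adjusted p = 0.25). It is shown outside the rule for per-library values, after those were seen, and Ahr itself was not called (0.49, adjusted p = 0.44).

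Cyp2r1, a vitamin D 25-hydroxylase, had 29, 43 and 21 reads in the HFD-STZ DHZ libraries and 3, 0 and 2 reads in the HFD-STZ vehicle libraries, or 0.853, 0.663 and 0.611 CPM and 0.163, 0 and 0.0803 CPM. NCD vehicle had 0, 0.457 and 0.383 CPM. All HFD-STZ DHZ libraries were above all others, at a level close to the limit of a count of 0. Pooled over libraries the ratio of HFD-STZ DHZ to HFD-STZ vehicle was 7.07 (exact 95% interval 2.93 to 22.3, counting error only). The fitted log2 fold change was 2.82 (SE 0.88, adjusted p = 0.039), which depends on the prior count, and the call was kept only without NCD vehicle 1 (0.011) or NCD vehicle 2 (0.049). With any other library left out it was 0.054 to 0.12, and 11 of 21 alternatives made the call.

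The 2 genes that fell were high in Y-positive HFD-STZ vehicle libraries. Cyp2a4 stood at 115, 166 and 177 CPM in HFD-STZ DHZ, against 126, 940.2 and 464 in HFD-STZ vehicle, with 266, 159 and 173 in NCD vehicle. The 2 high libraries, HFD-STZ vehicle 2 and 3, are the Y-positive ones, and the third overlapped HFD-STZ DHZ. The log2 fold change of −1.74 (SE 0.55, adjusted p = 0.042) became −1.10 (adjusted p = 0.11) with the Y term and 0.16 (adjusted p = 0.62) in Y-negative libraries alone, where HFD-STZ vehicle has 1 library. Without HFD-STZ vehicle 2, the library of lowest depth, it was −0.95 (adjusted p = 0.17), and the call was kept only without NCD vehicle 1 or HFD-STZ vehicle 1, against 0.058 to 0.17 with another library left out. In all, 7 of 21 alternatives made the call. Cyp2d9, a steroid 16-alpha-hydroxylase that is male-biased in mouse liver, stood at 2.23, 3.41 and 2.79 CPM in HFD-STZ DHZ, against 3.79, 11.1 and 25.2 in HFD-STZ vehicle, with 17.4, 5.90 and 5.52 in NCD vehicle. HFD-STZ DHZ was the lowest group, without overlap. The log2 fold change was −2.25 (SE 0.68, adjusted p = 0.044) and −1.48 (adjusted p = 0.042) with the Y term, and in Y-negative libraries alone it was −0.40 (adjusted p = 0.35). The call was kept only without NCD vehicle 1 or HFD-STZ vehicle 1, and the adjusted p was 0.052 to 0.15 with any other library left out. Without HFD-STZ vehicle 3 the log2 fold change was −1.33 (adjusted p = 0.13), and 10 of 21 alternatives made the call.

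Separate ranges of the 2 groups were seen for 9 genes, beside 39.8% of all genes. There were 5 that were higher in HFD-STZ DHZ (Cyp1b1, Cyp2j5, Cyp2j6, Cyp2r1 and Cyp4v3) and 4 that were lower (Cyp2d9, Cyp2j7, Cyp46a1 and Cyp4f13), beside 20.9% and 19.0% of all genes. Cyp4a14 was not called, with an estimate of 2.64 on the log2 scale (SE 1.15, adjusted p = 0.15). With the Y term it was 2.13 (SE 0.31, adjusted p = 0.0018), and Cyp2d26 (1.05, adjusted p = 0.011), Cyp2e1 (1.53, adjusted p = 0.012) and Cyp2j5 (1.28, adjusted p = 0.028) were called higher as well, for 7 genes in all (19.4%), beside 21.3% of all genes in that fit. Within Y-negative libraries Cyp4a14 averaged 89.9 CPM in 2 HFD-STZ DHZ libraries against 24.9 in 1 HFD-STZ vehicle library, and within Y-positive ones it was 20.1 in 1 library against a mean of 3.27 in 2. The direction was thus the same on either side of the split.

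The question of the disease model rests on HFD-STZ vehicle against NCD vehicle, in which diet and STZ differ. None of the 36 was called (edgeR), beside 0.0524% of all genes tested, which is 9 genes. At an unadjusted p below 0.05 there were 7 (19.4%), beside 7.43% of all genes. DESeq2 called 2 (5.56%), beside 0.733% of all genes, and limma-voom called 0. The median log2 fold change of the 36 was −0.27, against 0 for all genes, and 14 of 36 estimates were above 0, against 49.7% of all genes.

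Cyp2d12, of the CYP2D subfamily that handles many drugs, came closest. It stood at 11.1, 3.10 and 6.98 CPM in HFD-STZ vehicle, against 45.98, 29.5 and 27.2 in NCD vehicle. The estimate was −2.24 on the log2 scale (SE 0.37, adjusted p = 0.066). Every HFD-STZ vehicle library was below every NCD vehicle library, and with the Y term the value was −2.21 (SE 0.35, adjusted p = 0.030), and it was the 1 member called in that fit, beside 0.244% of all genes. Without HFD-STZ vehicle 1 it was called as well (−2.69, adjusted p = 0.027). Separate ranges were seen for 8 genes, beside 11.4% of all genes. There were 6 genes that were lower (Cyp1b1, Cyp2c23, Cyp2d12, Cyp2j6, Cyp2j7 and Cyp2j8), beside 6.56% of all genes, and 2 that were higher (Cyp4f16 and Cyp4f17), beside 4.83%. Cyp2c23, the main arachidonate epoxygenase of rodent kidney and also shown outside the rule, stood at 5.96, 12.0 and 8.11 CPM in HFD-STZ vehicle, against 12.2, 20.8 and 18.3 in NCD vehicle (−1.0, SE 0.30, adjusted p = 0.40).

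Treated diabetic kidney was also set against control kidney, in a comparison that shares its libraries with the other 2. Cyp2j5 was higher in HFD-STZ DHZ than in NCD vehicle, and Cyp2d12, Cyp2j7, Cyp2j8 and Cyp27a1 were lower. These 5 of 36 genes (13.9%) stand beside 13.7% of all genes, with 1 against 6.31% higher and 4 against 7.38% lower. At an unadjusted p below 0.05 there were 12 (33.3%), beside 31.7% of all genes, and the median log2 fold change was 0.03, against 0.01 for all genes.

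Cyp2d12 stood at 6.91, 6.00 and 4.62 CPM in HFD-STZ DHZ, against 45.98, 29.5 and 27.2 in NCD vehicle. Its level in HFD-STZ DHZ was near that in HFD-STZ vehicle, against which it was not called (log2 fold change −0.31, SE 0.36, adjusted p = 0.57). Against NCD vehicle the log2 fold change was −2.55 (SE 0.37, adjusted p = 0.0083), and it was called in 21 of 21 alternatives, with an adjusted p of at most 0.049. Cyp2d12 and Cyp2d9 share sequence, and 17.9% of the 50-base windows of the Cyp2d12 transcript occur in another gene, so reads between them may have been split.

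The CYP2J subfamily, whose members are epoxygenases of arachidonic acid, had 1 member called higher and 2 lower. Cyp2j5, the main CYP2J enzyme of mouse kidney tubules, stood at 293, 272 and 251 CPM in HFD-STZ DHZ, 55.5, 164 and 192 in HFD-STZ vehicle, and 125, 115 and 113 in NCD vehicle. HFD-STZ DHZ was above all other libraries. Against NCD vehicle the log2 fold change was 1.21 (SE 0.37, adjusted p = 0.049), at the threshold, and the adjusted p was 0.078 to 0.14 with any library of these 2 groups left out. It was called in 8 of 21 alternatives. Against HFD-STZ vehicle it was 0.99 (SE 0.37, adjusted p = 0.072).

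Cyp2j7 stood at 4.41, 3.67 and 3.46 CPM in HFD-STZ DHZ, 4.66, 7.96 and 5.18 in HFD-STZ vehicle, and 13.9, 11.6 and 8.84 in NCD vehicle. The 3 groups did not overlap, and HFD-STZ vehicle lay between. Against NCD vehicle the log2 fold change of HFD-STZ DHZ was −1.57 (SE 0.26, adjusted p = 0.0090), and the adjusted p was at most 0.049 with any library left out. It was lost in 2 of 21 alternatives, scaling by library size alone (0.57) and Y-positive libraries alone (0.27). Cyp2j8 was scarce, at 0.353, 0.308 and 0.465 CPM in HFD-STZ DHZ, 0.163, 0.135 and 0.401 in HFD-STZ vehicle, and 1.82, 1.12 and 1.12 in NCD vehicle. Both HFD-STZ groups lay below every NCD vehicle library. For HFD-STZ DHZ the log2 fold change was −1.84 (SE 0.44, adjusted p = 0.023), and the adjusted p was 0.053 to 0.099 without NCD vehicle 1, NCD vehicle 2, HFD-STZ DHZ 1 or HFD-STZ DHZ 2. It was called in 14 of 21 alternatives.

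Cyp27a1, the mitochondrial sterol 27-hydroxylase, stood at 4.76, 4.43 and 5.21 CPM in HFD-STZ DHZ, 4.28, 10.8 and 5.98 in HFD-STZ vehicle, and 11.1, 8.06 and 9.74 in NCD vehicle. HFD-STZ DHZ lay below NCD vehicle without overlap, and HFD-STZ vehicle spanned both. The log2 fold change was −1.0 (SE 0.29, adjusted p = 0.040), and the adjusted p was 0.069 to 0.14 with any library of these 2 groups left out. It was called in 12 of 21 alternatives. Separate ranges were seen for 13 genes, beside 44.1% of all genes. There were 4 genes higher (Cyp2j5, Cyp2r1, Cyp4f16 and Cyp4f17), beside 22.4% of all genes, and 9 lower (Cyp27a1, Cyp2c23, Cyp2d12, Cyp2d22, Cyp2d9, Cyp2j7, Cyp2j8, Cyp46a1 and Cyp4f13), beside 21.7%.

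With the Y term the comparison of HFD-STZ DHZ with NCD vehicle called 13 genes (36.1%), beside 21.1% of all genes. Higher were Cyp2e1 (1.17, adjusted p = 0.029), Cyp2j13 (1.07, adjusted p = 0.034), Cyp2j5 (1.23, adjusted p = 0.021), Cyp4a14 (1.52, adjusted p = 0.0059) and Cyp4b1 (1.21, adjusted p = 0.012). Lower were Cyp27a1, Cyp2c23, Cyp2d12, Cyp2d22, Cyp2d9, Cyp2j7, Cyp2j8 and Cyp2j9, with log2 fold changes of −2.59 for Cyp2d12 to −0.88 for Cyp2d22. Among the 9 genes called in a group comparison without that term and the 8 called by Y status there was no gene in common, and 19 of the 36 were called by neither.

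**Figure D4:**
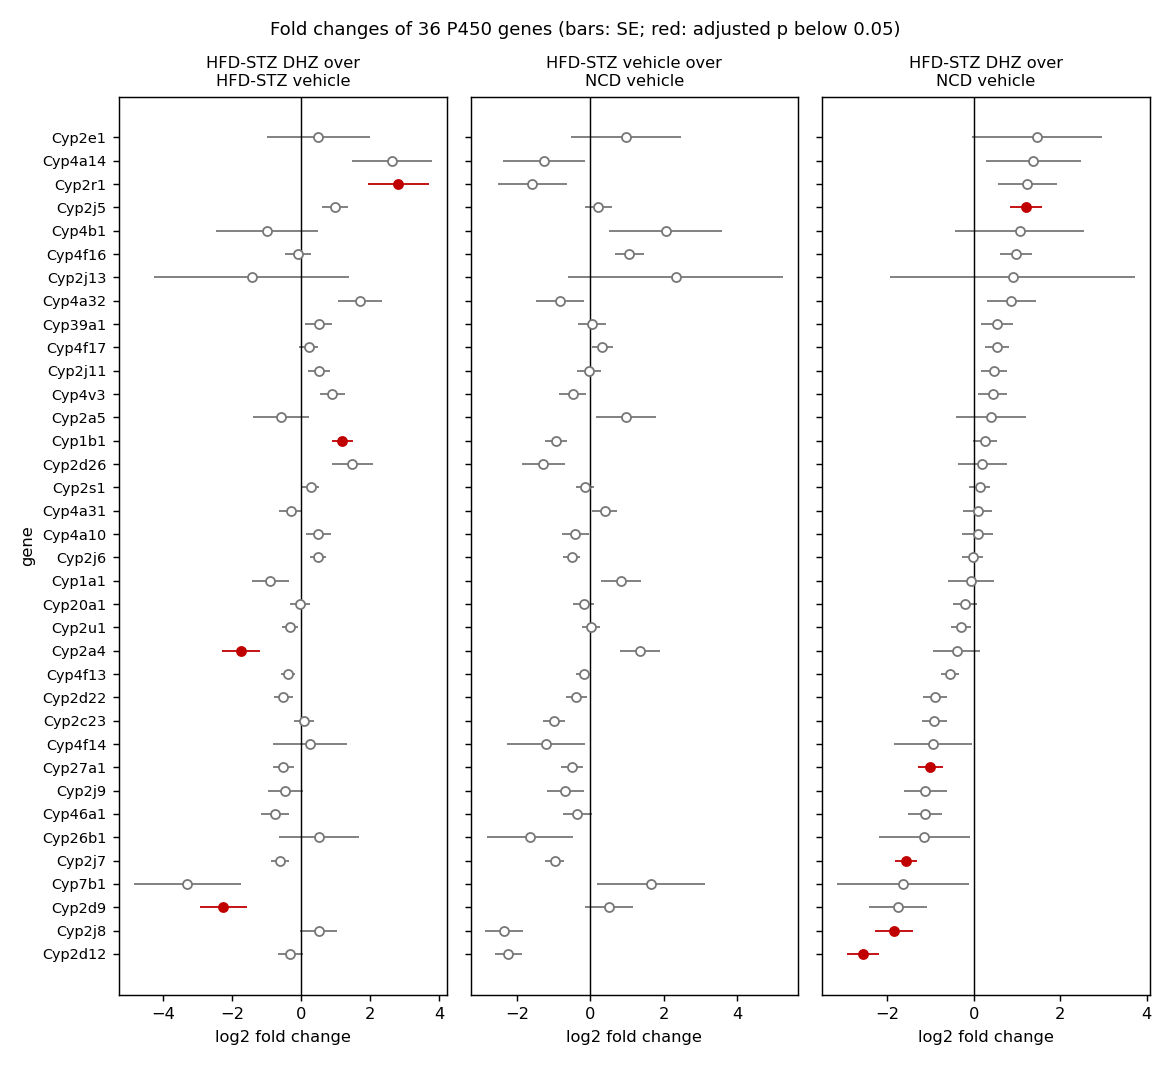
Log2 fold change of each of the 36 P450 genes in the 3 group comparisons, with bars for the SE and red points for an adjusted p below 0.05, in the fit without the Y term. Called genes number 4, 0 and 5 from left to right, and the widest bars belong to Cyp2j13, Cyp4b1, Cyp2e1 and Cyp7b1.

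**Figure D5:**
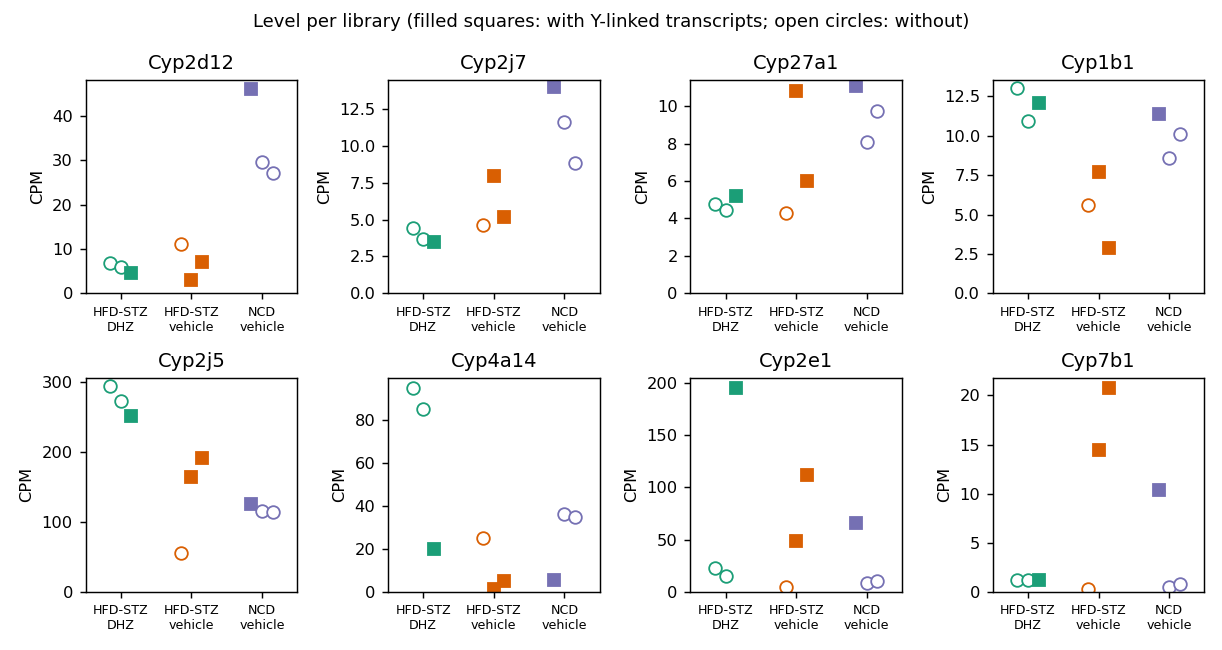
Level in CPM of 8 P450 genes in each library by group, with filled squares for Y-positive and open circles for Y-negative libraries. Cyp2d12 is low in all 6 HFD-STZ libraries (at most 11.1 CPM) and high in the 3 NCD vehicle ones (at least 27.2), whereas Cyp2e1 is high in the squares of each group.

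By role, the CYP2 family was the largest. Of its 17 genes other than Cyp2r1, which is counted with the vitamin D genes, HFD-STZ DHZ against HFD-STZ vehicle called 0 higher and 2 lower, HFD-STZ DHZ against NCD vehicle 1 higher and 3 lower, and Y status 4 higher and 1 lower. Of all genes tested, 22.1% and 13.7% were called in those 2 group comparisons and 3.43% by Y status. None of the 10 CYP4 genes, which hydroxylate fatty acids and eicosanoids, was called in a group comparison of the fit without the Y term, with medians of 0.24 and 0.49 in the same 2 comparisons and −0.29 for HFD-STZ vehicle against NCD vehicle. Y status called 1 of them higher and 2 lower. The estimates of all 4 CYP4A genes described here were below 0, although that of Cyp4a31 lay above 0 without NCD vehicle 1 or HFD-STZ DHZ 3. CYP4A genes whose symbol ends in a further letter, such as Cyp4a12a, are not among these 4. Of the 5 genes for sterols, bile acids and vitamin D (Cyp27a1, Cyp2r1, Cyp39a1, Cyp46a1 and Cyp7b1), 1 rose with DHZ against HFD-STZ vehicle and 1 was lower against NCD vehicle. Cyp46a1, the cholesterol 24-hydroxylase, was not called and averaged 0.636 CPM in HFD-STZ DHZ, 1.07 in HFD-STZ vehicle and 1.38 in NCD vehicle. Cyp26b1, which breaks down retinoic acid, ranged from 0.294 to 6.31 CPM with no separation of the groups, and NCD vehicle 1 was the high library.

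Among the 19 genes called by neither term, Cyp20a1, Cyp2s1, Cyp2u1 and Cyp4f13 stayed between 2.69 and 11.2 CPM over the 9 libraries, with log2 fold changes of −0.55 to 0.28 in the 3 group comparisons. Cyp2u1, a long-chain fatty acid hydroxylase, averaged 3.99 ± 0.738 CPM in HFD-STZ DHZ, 4.97 ± 0.217 in HFD-STZ vehicle and 4.90 ± 0.921 in NCD vehicle (mean ± SD, n = 3 each). Cyp2s1, which metabolises retinoids and eicosanoids, averaged 5.60 ± 1.49, 4.56 ± 0.683 and 5.08 ± 0.246 CPM in the same order. Cyp4f16, Cyp4f17 and Cyp4v3 had log2 fold changes of 0.98, 0.54 and 0.44 in HFD-STZ DHZ against NCD vehicle, with adjusted p of 0.095, 0.20 and 0.41.

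Genes that serve P450 enzymes were read from lists. Of 6 tested electron donors, Fdxr, which passes electrons to mitochondrial P450s, fell to 3.82, 3.30 and 2.85 CPM in HFD-STZ DHZ, against 7.86, 5.12 and 8.59 in HFD-STZ vehicle and 9.57, 6.15 and 6.75 in NCD vehicle (log2 fold change −1.13, adjusted p = 0.012, and −1.17, adjusted p = 0.018). The other 5, among them the microsomal reductase Por, were called in no group comparison, and Cyb5r3 was higher in Y-positive libraries (1.47, adjusted p = 5.5e-04). Of 12 genes of heme synthesis and breakdown, 2 rose with DHZ over HFD-STZ vehicle, the heme oxygenases Hmox1 (2.21, adjusted p = 0.047) and Hmox2 (0.69, adjusted p = 0.043), and 0 fell. Hmox1 stood at 2.03, 7.77 and 13.2 CPM in HFD-STZ DHZ, 0.596, 0.944 and 3.09 in HFD-STZ vehicle, and 1.497, 0.997 and 1.05 in NCD vehicle.

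Receptors and regulators of P450 genes were also called in HFD-STZ DHZ against HFD-STZ vehicle, where 22.1% of all genes tested were called. The antioxidant factor Nfe2l2 rose (1.02, adjusted p = 0.010), and the fatty acid receptor Ppara (−0.87, adjusted p = 0.024) and the repressor Bcl6 (−1.85, adjusted p = 0.020) fell. Y-positive libraries had more of the bile acid receptor Nr1h4 (1.36) and less of the xenobiotic receptor Nr1i2 (−0.98). Of 18 PPAR alpha target genes outside the family, 4 rose with DHZ (Ehhadh, Cpt1a, Plin2 and Acot1) and 1 fell (Acot2). Ehhadh, a peroxisomal beta-oxidation enzyme, stood at 83.9, 93.9 and 44.0 CPM in HFD-STZ DHZ, 14.1, 18.2 and 24.4 in HFD-STZ vehicle, and 31.3, 44.6 and 33.6 in NCD vehicle (1.97 against HFD-STZ vehicle, adjusted p = 0.0039). Like Cyp4a14, it was highest in HFD-STZ DHZ 1 and 2. Y-positive libraries had less Fabp1 (−2.95, adjusted p = 1.4e-04) and Acot3 (−1.42, adjusted p = 0.0035).

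Of 9 tested epoxide hydrolases and arachidonate enzymes, 0 were called by group in any comparison (edgeR), with 1, 1 and 2 at an unadjusted p below 0.05. Ephx2, which hydrolyses the epoxides that CYP2C and CYP2J make, was higher in Y-positive libraries (1.62, adjusted p = 0.0041). Of 17 tested glucuronosyl- and sulfotransferases and flavin monooxygenases, DHZ against HFD-STZ vehicle called 3 higher (Ugt1a6a, Ugt3a2 and Sult1c2) and 0 lower, and Y status 5 higher and 1 lower. Ugt1a6a, a phenol glucuronosyltransferase, stood at 7.94, 5.49 and 3.98 CPM in HFD-STZ DHZ, 0.867, 1.35 and 1.56 in HFD-STZ vehicle, and 1.12, 1.91 and 2.43 in NCD vehicle (2.20 against HFD-STZ vehicle, adjusted p = 0.0051).

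Markers of other cell types moved beside these results. Of the 20 proximal tubule markers, 6 rose and 0 fell in HFD-STZ DHZ against HFD-STZ vehicle. The 10 adipocyte markers summed to 27.6 to 141 CPM in HFD-STZ DHZ, 12.1 to 28.0 in HFD-STZ vehicle and 28.7 to 127 in NCD vehicle, with 1 of 9 tested, Cidec, called higher in HFD-STZ DHZ against HFD-STZ vehicle. Of 7 tested immune markers Ptprc, C1qa and C1qb rose and Csf1r fell in that comparison, with summed levels of 29.6 to 40.3 CPM in HFD-STZ DHZ, 21.4 to 45.4 in HFD-STZ vehicle and 33.3 to 49.2 in NCD vehicle. Of 8 endothelial markers 0 were called there (edgeR, 2 at an unadjusted p below 0.05). By Y status, Slc7a13 (7.68), Acsm2 (2.70) and Slc22a6 (1.61) of the 20 proximal tubule markers were higher in Y-positive libraries, beside 1.74% of all genes. That list summed to 4966 to 7859 CPM in Y-positive libraries, against 3233 to 5024 in Y-negative ones. The list did not move as a whole, since only 10 of its 20 estimates were above 0 and their median was 0.01. Umod (−1.28) and Slc4a1 (−0.93) of the distal tubule list, Tek (−1.25) and Plvap (−1.26) of the endothelial list, Csf1r (−0.69) of the immune list and Trf (−1.60) of the liver list were lower in Y-positive libraries. P450 genes took 0.503%, 0.481% and 0.630% of nuclear protein-coding counts in HFD-STZ DHZ, 0.290%, 0.749% and 0.674% in HFD-STZ vehicle, and 0.454%, 0.407% and 0.414% in NCD vehicle, with 0.454% to 0.749% in Y-positive libraries and 0.290% to 0.503% in Y-negative ones. The part of tubule, liver, fat, endothelial and immune cells or depth in the P450 differences was not tested.

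Near-identical copies limit some of these values. Counts of shared reads could not be separated, and over 10% of the 50-base transcript windows recur in another gene for Cyp4a32 (46.8%), Cyp2a5 (40.8%), Cyp2a4 (38%), Cyp4a10 (30.5%), Cyp2d9 (29%), Cyp4f16 (26.5%), Cyp4a31 (21.8%), Cyp2d12 (17.9%), Cyp2d26 (10.5%) and Cyp4b1 (10.3%). For Cyp2a4 and Cyp2a5 the closest gene was the other of the pair. For 10 of the 36 genes, Cyp1b1 and Cyp27a1 among them, no window recurred. Genes on the opposite strand overlap Cyp2a4, Cyp2d9, Cyp2s1 and Cyp2u1, and the strand setting of the counting is not stated in the labels, so their reads may be mixed. Cyp4v3 overlaps Gm45753 on its own strand, and Cyp2d9 overlaps the pseudogenes Gm46501 and Gm49421 on its own, so reads may be mixed there too.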

How the data were processed

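The authors deposited 1 table of unnormalised counts, whole numbers for 55359 Ensembl identifiers in 9 kidney libraries, and no other per-sample columns (0). The labels' protocols describe oligo-bead mRNA capture and a stranded kit. Tools named in the submitters' processing notes are FastQC, Trim Galore and STAR, with build GRCm39 (mm39). Their versions, the counter and its strand and multiple-mapping settings are not stated there. Symbols, gene class and exon length came from an annotation of an older build, matched on the Ensembl identifier for 94.1% of genes.

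The robust quasi-likelihood F-test of edgeR 4.0.16 (R 4.3.3) was applied to the counts. Filtering by group with filterByExpr left 17179 genes, including all 36 described P450 genes, and libraries were scaled by TMM (trimmed mean of M values). All 9 libraries entered 1 fit with group as the term (6 residual degrees of freedom), and a second fit added Y status, set where the 4 Y-linked genes summed to over 5 CPM of total. P-values were two-sided and adjusted over all genes tested, a gene was called below 0.05, and SE came from the F statistic. Alternatives were other scalings and filters, DESeq2 1.42.0, limma-voom (limma 3.58.1), the replicate number as a block, the Y term, the 2 groups alone, each library left out in turn and, added after seeing the data, Y-positive or Y-negative libraries alone. The fit was tested on simulated data.

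Values per library go to genes called in any comparison, to the 10 with the highest level per kilobase, and to any with over 50% of its summed level in 1 library (0 genes). Genes shown outside this rule are said to be so. Some genes of the lists are not reported here. Members and lists were chosen with earlier results of these data known. Deviations of same-numbered libraries had correlations of −0.41 to 0.22 between groups. With 3 libraries in each group, of unlike Y status, these values cannot decide whether the numbers pair the libraries.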

Additional observations from a re-analysis of the deposited data

How the results depend on the processing

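The count of called P450 genes depended on the fit. Between HFD-STZ DHZ and HFD-STZ vehicle (4 called) it was 11 without a filter on low counts, 7 with DESeq2, 2 with limma-voom, 7 with the Y term, 14 in Y-negative libraries alone and 0 to 6 with a library left out (0 without HFD-STZ DHZ 1, 1 without HFD-STZ DHZ 2 or NCD vehicle 3, 2 without NCD vehicle 2, HFD-STZ vehicle 2 or HFD-STZ vehicle 3). For HFD-STZ DHZ against NCD vehicle (5 called) it was 1 with library size only, 14 without a filter, 10 with DESeq2, 13 with the Y term, 15 in Y-negative libraries alone, 8 with the 2 groups alone and 2 to 8 with a library left out (2 without NCD vehicle 1 or 2 or HFD-STZ DHZ 1 or 2, 3 without NCD vehicle 3, 8 without HFD-STZ vehicle 1). For HFD-STZ vehicle against NCD vehicle (0 called) it was 1 with library size only, 12 without a filter, 2 with DESeq2, 1 with the Y term, 5 in Y-negative and 1 in Y-positive libraries alone, and 0 to 1 with a library left out (1 without HFD-STZ vehicle 1). For Y status (8 called) it was 14 without a filter, 13 with DESeq2 and 6 to 9 with a library left out. With the replicate number as a block, which the labels do not say marks a shared animal or day, the counts in the same order were 1, 2, 0 and 6. Of all genes tested, the shares called were 14.5% without a filter, 27.4% with DESeq2, 21.3% with limma-voom, 12.6% with the block, 21.3% with the Y term and 31.4% in Y-negative libraries alone between HFD-STZ DHZ and HFD-STZ vehicle. For HFD-STZ DHZ against NCD vehicle these were 0.21% with library size only, 10.6% without a filter, 20.5% with DESeq2, 4.49% with the block, 21.1% with the Y term, 26.5% in Y-negative libraries alone and 23.6% with the 2 groups alone. For HFD-STZ vehicle against NCD vehicle they were 0.169% with library size only, 1.33% without a filter, 0.733% with DESeq2, 0.244% with the Y term, 0.746% in Y-negative and 0.179% in Y-positive libraries alone, and by Y status 3.95% without a filter, 6% with DESeq2 and 2.43% with the block. With a library left out the shares changed too. Between HFD-STZ DHZ and HFD-STZ vehicle they were 6.55% and 7.41% without HFD-STZ DHZ 1 or 2, and 16% to 22.9% otherwise. For HFD-STZ DHZ against NCD vehicle they were 1.45% and 4.38% without NCD vehicle 1 or 2. Without HFD-STZ DHZ 1 or 2 they were 0.639% and 1.39%, and otherwise 9.29% to 20.6%. For HFD-STZ vehicle against NCD vehicle they were 0.0112% to 0.158%, and by Y status 1.62% to 5.25%. Correlations of same-numbered deviations from the group means were −0.40, −0.19 and −0.13 between HFD-STZ vehicle and NCD vehicle, and not every one was positive in the other pairs of groups.

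Of 1597 values of single genes under an alternative, 73 had another sign than the reported value, and 1 of these, Cyp2a4 between HFD-STZ DHZ and HFD-STZ vehicle, was called as reported. Between HFD-STZ DHZ and HFD-STZ vehicle these were Cyp27a1 (0.50), Cyp2a5 (0.75), Cyp2d12 (0.21), Cyp2j7 (0.30), Cyp2j9 (0.59), Cyp4a31 (0.73) and Cyp4b1 (0.10) with library size only, Cyp2j9 (0.09) and Cyp4b1 (0.23) with the Y term, Cyp2e1 (−0.03) with the replicate block, Cyp27a1 (0.11), Cyp2a4 (0.16), Cyp2a5 (0.50), Cyp2j9 (0.63), Cyp4a31 (0.47) and Cyp4b1 (0.85) in Y-negative libraries alone, Cyp2j11 (−0.68) and Cyp4a10 (−0.33) in Y-positive libraries alone. With a library left out there, values that crossed 0 were −1.68 to 0.32 for Cyp2a5, −0.62 to 0.14 for Cyp2d12, −1.53 to 1.58 for Cyp2e1 and −0.55 to 0.16 for Cyp4a31. For HFD-STZ DHZ against NCD vehicle these were Cyp2a5 (−0.16) with the Y term, Cyp2j13 (−1.09) with the replicate block, Cyp2a5 (−0.73) in Y-negative libraries alone, Cyp2j11 (−0.70) and Cyp4a10 (−0.10) in Y-positive libraries alone. With a library left out there, values that crossed 0 were −0.71 to 0.77 for Cyp2a5, −0.17 to 0.59 for Cyp2d26, −0.56 to 3.04 for Cyp2e1, −5.55 to 8.23 for Cyp2j13, −0.16 to 0.40 for Cyp4a10, −0.09 to 0.25 for Cyp4a31 and −0.71 to 3.07 for Cyp4b1. For HFD-STZ vehicle against NCD vehicle these were Cyp2a5 (−0.34), Cyp2d9 (−0.18), Cyp2j5 (−0.76) and Cyp4a31 (−0.68) with library size only, Cyp2a5 (−0.12), Cyp2e1 (−0.36), Cyp2j11 (0.08) and Cyp2j5 (−0.05) with the Y term, Cyp2a4 (−0.42), Cyp2a5 (−1.23), Cyp2d9 (−0.61), Cyp2e1 (−1.21), Cyp2j5 (−1.06) and Cyp4a31 (−0.42) in Y-negative libraries alone, Cyp2r1 (3.46) and Cyp4a10 (0.23) in Y-positive libraries alone. With a library left out there, values that crossed 0 were −0.41 to 1.24 for Cyp2d9, −0.12 to 2.54 for Cyp2e1, −0.10 to 0.05 for Cyp2j11, −0.11 to 0.61 for Cyp2j5 and −0.06 to 0.65 for Cyp4a31. By Y status these were Cyp1b1 (−0.79), Cyp27a1 (−0.34), Cyp2j5 (−0.23), Cyp2j7 (−0.58) and Cyp2j8 (−0.02) with library size only, Cyp1b1 (−0.01) with limma-voom. With a library left out there, values that crossed 0 were −0.10 to 0.21 for Cyp1b1, −0.76 to 0.18 for Cyp2d12, −0.62 to 0.16 for Cyp2j11, −0.01 to 0.90 for Cyp2j5 and −0.57 to 0.15 for Cyp4a31. In Y-negative libraries alone HFD-STZ vehicle has 1 library, which is assumed to vary like the other groups. Of the other values 1355 kept their sign and their side of the threshold, 84 lost a call and 85 gained one. Scaling by library size alone moved the median of all genes by 0.81 between HFD-STZ DHZ and HFD-STZ vehicle, 0.04 for HFD-STZ DHZ against NCD vehicle, −0.74 for HFD-STZ vehicle against NCD vehicle and −0.77 for Y status. Cyp2j13, Cyp4b1, Cyp2e1, Cyp4a14 and Cyp2d26 were called by Y status in 17 of 17 alternatives. Except where fewer libraries were fitted, the cause of a change was not tested. Depth limits Cyp2r1, Cyp2j8, Cyp1a1 and Cyp4f14 most.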
